A study of Mus musculus with 11 samples.

Results

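The genes described here were 37 genes of the unfolded protein response and the integrated stress response, chosen by name with earlier results of these data known. They comprised 14 chaperones and folding enzymes of the endoplasmic reticulum (ER), 4 genes of ER-associated degradation, 7 stress sensors and transcription factors, 11 genes known as targets of the transcription factor ATF4, and the antisense gene Vldlr-as. Of the 48709 genes listed in the count tables, 36 matched a member by its Ensembl identifier, and no listed gene matched Vldlr-as by name, so it has no value below. All 36 matched members passed the filter on low counts and were among the 17365 genes tested.

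RNA was measured by poly(A) RNA sequencing in primary hippocampal neurons of CD1 mouse embryos at embryonic day 17. Both groups received lipid nanoparticles together with ApoE4 on day in vitro 10 and were harvested 48 h later, on day in vitro 12. The 5 mimic samples received a synthetic mimic of miR-181a-5p, a microRNA, and the 6 control samples received a negative control oligonucleotide. Per the study's methods, hippocampi of several embryos were pooled before plating. The samples of a group may therefore share their source, and p-values measure the spread between these samples, which may be technical. Libraries were between 17287168 and 48091231 counts deep, with control replicate 1 the deepest. Summed over their lists, markers of neurons came to between 9818 and 10082 CPM (counts relative to library size) in the control samples, markers of astrocytes to between 4950 and 5390, and markers of microglia to between 16.7 and 17.7. Neuronal and astrocytic transcripts were thus both abundant, and microglial ones were scarce.

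The unfolded protein response is set off when unfolded proteins accumulate in the ER. The sensors IRE1 (gene Ern1), PERK (Eif2ak3) and ATF6 then raise the production of chaperones and of the machinery that returns misfolded proteins to the cytosol for degradation. PERK also phosphorylates the translation factor eIF2, which is the common step of the integrated stress response: general translation slows while the ATF4 mRNA is translated more, and ATF4 raises genes of amino acid synthesis and transport, of serine and folate metabolism and of feedback control. In neurons, with their large load of secreted and membrane proteins, this pathway is known for its part in protein homeostasis and in plasticity.

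A microRNA pairs with messenger RNAs mainly through its seed, bases 2 to 8, which is printed in capitals. The mimic and the control oligonucleotide are shown since every seed match below refers to the former.
miR-181a-5p mimic: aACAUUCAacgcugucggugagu
negative control: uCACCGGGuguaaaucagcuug
The mimic was identical to the mature mouse miR-181a-5p of RefSeq. A full match of 8 nucleotides in an mRNA pairs with bases 2 to 8 and has an A opposite base 1, and a match of 7 nucleotides pairs with bases 2 to 8 alone. Such a match was present in the longest annotated 3' untranslated region (3' UTR) of 9 of the 36 members, compared with 18.5% of 14489 tested genes with a 3' UTR. Of the 9, 5 members held a match of 8 nucleotides. The sites of the members on the study's list of predicted miR-181a-5p targets are shown with the matched bases in capitals, on build GRCm38. The list held 5 of the members, Ddit4, Hspa5, Hsp90b1, Hyou1 and Sel1l.
Ddit4, chr10:59949971-59949978, minus strand: tcttacagactgcaTGAATGTAaga
Hsp90b1, chr10:86690913-86690920, minus strand: tttaacattcctccTGAATGTAaat
Hyou1, chr9:44391911-44391918, plus strand: gagagaccatggagTGAATGTAaaa
Sel1l, chr12:91809653-91809659, minus strand: tcggcagagctgcagTGAATGTttg
Sel1l, chr12:91808400-91808406, minus strand: ggaaagctttgagttTGAATGTtgg
Hspa5, chr2:34776199-34776205, plus strand: gagaacttaagtctcGAATGTAatt
The coordinates are those of the capitals. Ddit4, Hsp90b1 and Hyou1 each held a match of 8 nucleotides and Sel1l held 2 matches of 7, while the site of Hspa5 pairs with bases 2 to 7 and has the A opposite base 1, so that base 8 is unpaired. Dnajc3 and Slc7a11 also held a match of 8 nucleotides, Pdia6 held 1 match of 7, and Edem1 and Atf6 held 2 of 7 each, though none of these was on the list of predicted targets.

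Members spanned a wide range of levels. Per kilobase of merged exons, the control level ran from 0.893 CPM for Trib3 to 176 CPM for Calr, with a median of 15.0 CPM over the 36 members. The most abundant members per length were the lectin chaperones Calr and Canx (120.2 CPM per kilobase), then the disulphide isomerase Pdia3 (104), the ER Hsp70 chaperone Hspa5 (99.4) and the ER Hsp90 chaperone Hsp90b1 (78.7). Atf4 followed at 72.3 CPM per kilobase and was the most abundant transcription factor, above Atf5 (42.8), Xbp1 (23.97), Ddit3 (14.5) and Atf6 (7.06). The sensor Ern1 (2.00), the cystine transporter gene Slc7a11 (2.04) and the pseudokinase gene Trib3 lay lowest. Of the 35 neighbouring pairs in this order, the ranges of the 6 control samples were apart for 14 and overlapped for 21, so that Pdia3 and Hspa5, or Slc7a11 and Ern1, were not separated beyond their spread. The plot of levels per length shows both groups on the same axis.

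**Figure D1:**
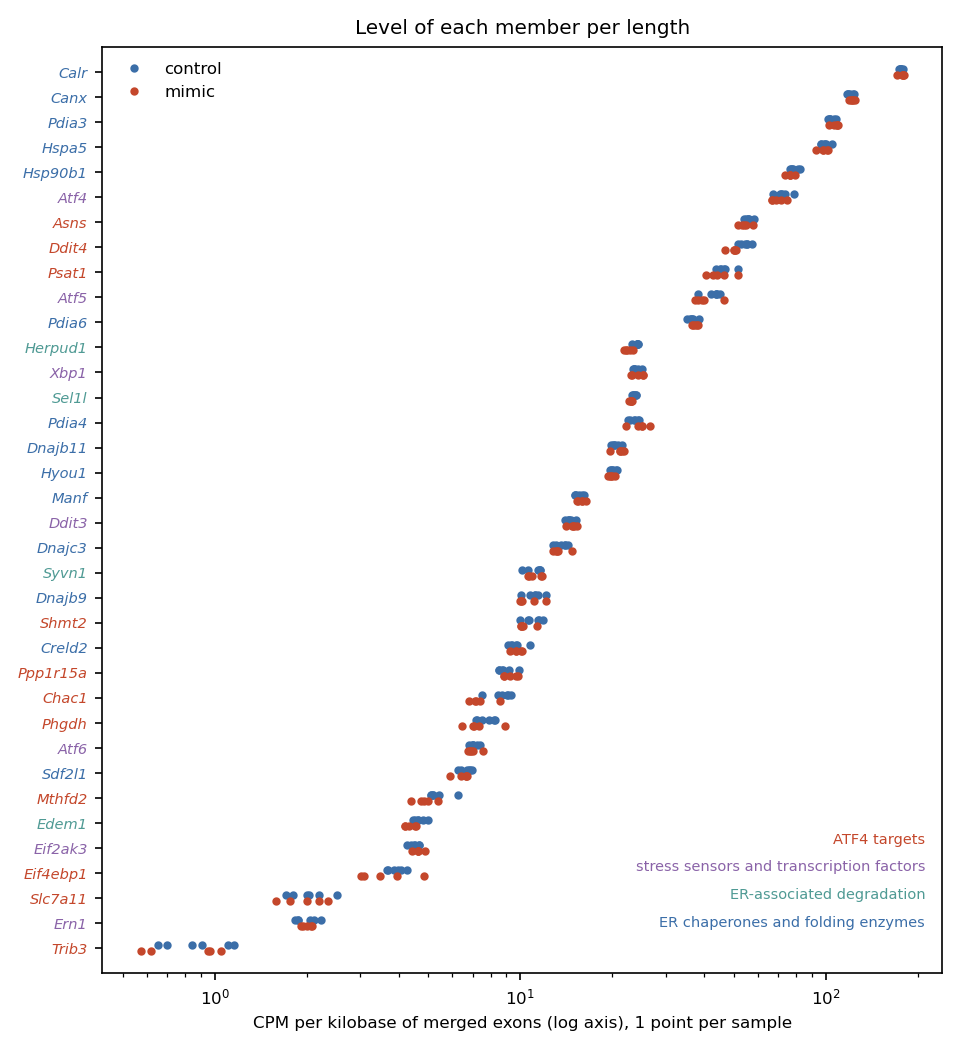
Level of each of the 36 members in CPM per kilobase of merged exons (log axis), with 1 point per sample, control in blue and mimic in red, and gene names coloured by role. Levels run from about 1 (Trib3, control mean 0.893) to 176 (Calr), and the 2 groups overlap for all members other than Ddit4 and Sel1l.

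The comparison of mimic with control asked which genes of these pathways changed after 48 h. Of the 36 members, 2 passed the quasi-likelihood test of edgeR at a threshold of 0.05 on the p adjusted over all 17365 genes, and both fell: Ddit4, an inhibitor of the growth regulator mTORC1, and Chac1, an enzyme that degrades glutathione. None rose (0 of 36). Against these 5.56% of members called, 2.85% of all tested genes were called, 1.77% as lower and 1.08% as higher (307 and 188 genes; with upper-quartile scaling 226 and 234). Groups did not overlap for 2 of 36 members, Ddit4 and Sel1l, and for 2.89% of all tested genes. The log2 fold change was below 0 for 23 of 36 members (21 with upper-quartile scaling), with a median of -0.031, compared with 50.1% below 0 and a median of -0.00010 over all tested genes. With a sample left out, between 20 and 24 members were below 0. Their median then ran from -0.037 (without control replicate 3) to -0.015 (without control replicate 6). At an unadjusted p under 0.05 there were 6 of 36 members, all with a negative change. At the same threshold there were 2727 of all 17365 tested genes, 1460 of them lower. Changes were small throughout, from -0.24 (Chac1) to 0.068 (Pdia4).

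**Figure D2:**
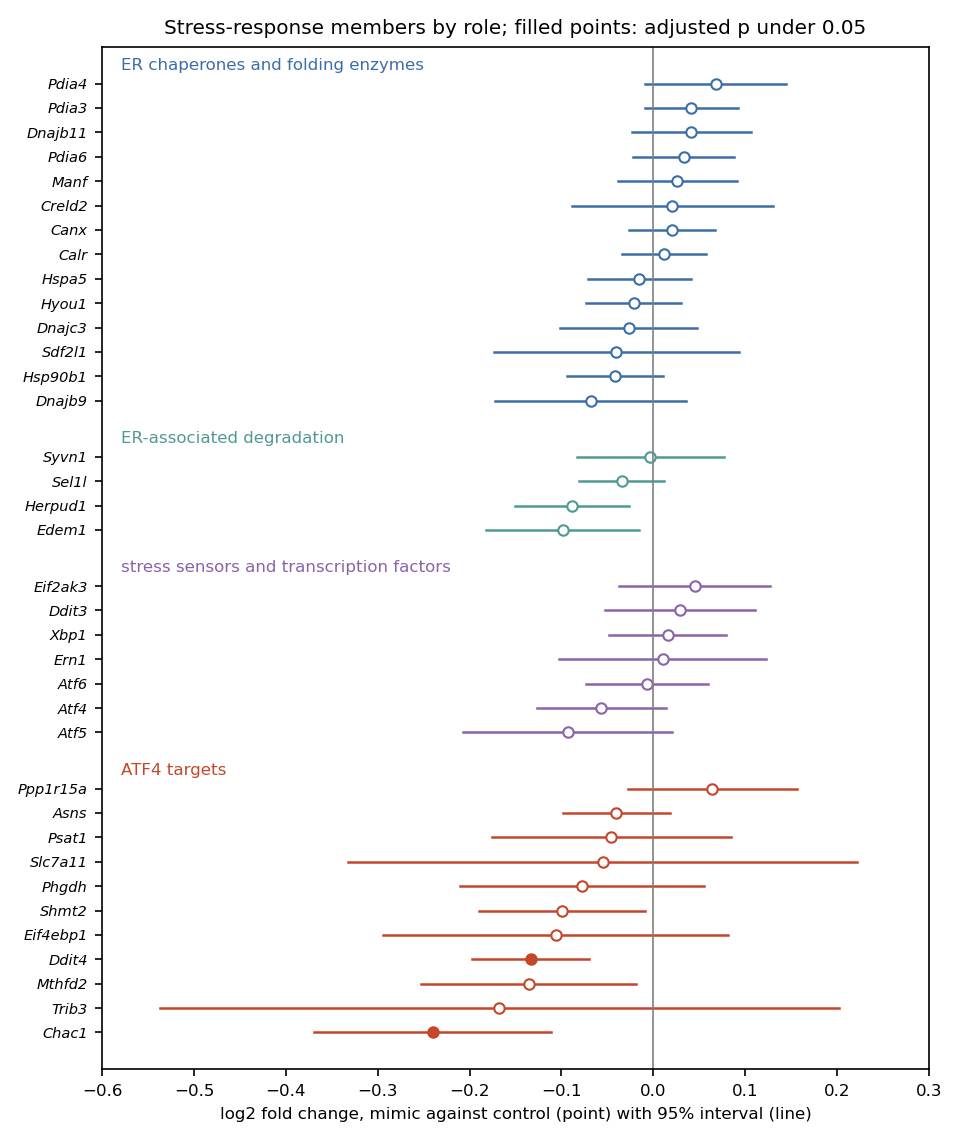
Log2 fold change (mimic against control) of the 36 members with its 95% interval from the edgeR fit, grouped by role, with filled points for adjusted p under 0.05. The 14 chaperones scatter on both sides of 0, while 10 of 11 ATF4 targets lie below 0, and 2 points are filled (Ddit4 and Chac1).

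Chaperones and folding enzymes did not pass the test in either direction (0 of 14, also 0 of 14 at an unadjusted p under 0.05, and 0 with DESeq2). Their log2 fold changes lay between -0.068 and 0.068, with 6 of 14 below 0 and a median of 0.016. Hspa5 (ENSMUSG00000026864, chromosome 2, 34771970 to 34777547, plus strand), the master chaperone that also holds the stress sensors inactive, had 419, 425, 409, 417, 407 and 444 CPM in the control samples and 392, 426, 414, 431 and 416 CPM in the mimic samples. The lowest value was that of mimic replicate 1 and the highest that of control replicate 6, with the other samples of both groups interspersed. The control mean was 420.2 ± 13.5 CPM (SD, n = 6), and the mimic mean 416 ± 15.3 CPM (SD, n = 5). The log2 fold change was -0.015 (SE 0.027, edgeR adjusted p 0.866), a change of -1.03% with a 95% interval from -4.78% to 2.86%. A larger fall of Hspa5 mRNA than the lower bound lay outside this interval, and a smaller one was not detectable with these samples.

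Hsp90b1 (ENSMUSG00000020048, chromosome 10, 86690209 to 86705509, minus strand), the ER Hsp90 chaperone, had 316, 326, 309, 314, 307 and 331 CPM in the control group, and 297, 319, 308, 309 and 307 CPM in the mimic group. The mimic samples lay toward the lower end of the control range, with mimic replicates 1 and 5 below it. The log2 fold change was -0.042 (SE 0.026, edgeR adjusted p 0.479), with an interval from -6.33% to 0.765%. Hyou1 (ENSMUSG00000032115, chromosome 9, 44379490 to 44392369, plus strand), which renews the nucleotide of Hspa5, had 146, 143, 150.3, 143, 149 and 144 CPM in the control group, and 143, 142, 144, 147 and 141 CPM in the mimic group. Here the groups overlapped over most of their range, and the log2 fold change was -0.021 (SE 0.025, edgeR adjusted p 0.774). The 8-nucleotide matches in both 3' UTRs (shown above) thus stood beside changes that did not pass the test.

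The other chaperones were the disulphide isomerases Pdia3, Pdia4 and Pdia6, the lectin chaperones Calr and Canx, the J-domain co-chaperones Dnajb9, Dnajb11 and Dnajc3, and the stress-inducible ER proteins Sdf2l1, Creld2 and Manf. Calr and Canx, the most abundant of them, had log2 fold changes of 0.012 (SE 0.022) and 0.020 (SE 0.023). The 3 isomerases were at 0.042, 0.068 and 0.033, while Dnajb9, which brings Hspa5 to IRE1, was at -0.068 (SE 0.051). Manf shares its locus with Rbm15b and Dcaf1, which are expressed at 65.5 and 34.7 CPM in control samples, and since the counting options are not given in the sources used here, its counts could hold reads of those genes. Of the 24 other ER folding and translocation genes, 0 were called, 19 had a log2 fold change above 0 and the median was 0.021. At an unadjusted p under 0.05 there were 6 of these 24, all higher in the mimic samples, beside 2727 of all 17365 tested genes. With DESeq2, 1 of the 24 was called, the disulphide isomerase gene Txndc5 (log2 fold change 0.097 and adjusted p 0.0659 with edgeR, named after its values were seen), and with upper-quartile scaling 2 were.

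**Figure D3:**
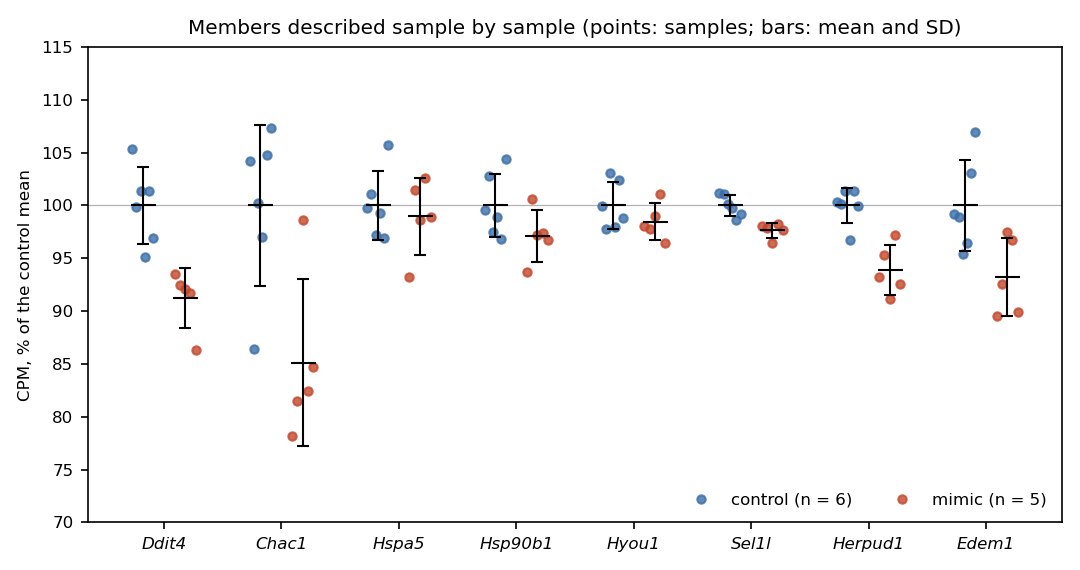
CPM of 8 members in each sample as a percentage of the gene's control mean (control in blue, n = 6, mimic in red, n = 5), with bars for the mean and SD. The axis starts at 70%. Ddit4 and Sel1l show no overlap between groups, mimic replicate 3 of Chac1 lies within the control range, and the groups overlap for Hspa5 and Hyou1.

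ER-associated degradation genes lay below 0 in 4 of 4 cases (3 of 4 with upper-quartile scaling, which put Syvn1 at 0.0071), with a median log2 fold change of -0.061, and 0 were called (2 at an unadjusted p under 0.05, 0 with DESeq2). Syvn1 was below 0 in 8 of 18 alternative analyses, and Herpud1, Sel1l and Edem1 in 18 of 18. Herpud1 (ENSMUSG00000031770, chromosome 8, 94386438 to 94395377, plus strand), a membrane protein that assembles the degradation complex, had 56.3, 56.2, 56.9, 54.3, 56.9 and 56.1 CPM in the control group, and 52.3, 53.5, 51.2, 54.5 and 51.9 CPM in the mimic group. The groups touched in a single place, where mimic replicate 4 was just above control replicate 4. Its log2 fold change was -0.088 (SE 0.030, edgeR adjusted p 0.12). Sel1l (ENSMUSG00000020964, chromosome 12, 91806043 to 91849157, minus strand), the adaptor of the ubiquitin ligase Syvn1, had 204, 204, 202, 201, 199 and 200.2 CPM in the control group, and 198, 197, 195, 198 and 197 CPM in the mimic group. All mimic samples were below all control samples, though by 2.36% on average, and the log2 fold change was -0.035 (SE 0.023, edgeR adjusted p 0.52).

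Edem1 (ENSMUSG00000030104, chromosome 6, 108828641 to 108859356, plus strand), which takes misfolded glycoproteins out of the folding cycle, had 29.96, 29.9, 28.8, 29.1, 31.1 and 32.3 CPM in the control group, and 27.0, 28.0, 29.4, 29.2 and 27.1 CPM in the mimic group. Mimic replicates 3 and 4 lay within the control range and the other mimic samples below it. The log2 fold change was -0.099 (SE 0.041, edgeR adjusted p 0.215). Syvn1, the ligase itself, was at -0.0033 (SE 0.039) and overlaps the expressed gene Mrpl49. Among 20 other ER-associated degradation genes 0 were called (0 with DESeq2, 1 with upper-quartile scaling, and 1 at an unadjusted p under 0.05), and 12 of 20 were below 0 with a median of -0.0090, which upper-quartile scaling put at 0.0012.

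Sensors and transcription factors did not pass the test (0 of 7, with 0 at an unadjusted p under 0.05 and 0 with DESeq2). The 3 sensors, Ern1, Eif2ak3 and Atf6, had log2 fold changes of 0.010 (SE 0.055), 0.045 (SE 0.040) and -0.0065 (SE 0.032). Xbp1, whose mRNA is spliced by IRE1, was at 0.016 (SE 0.031), and gene counts do not separate its spliced from its unspliced form. Ddit3, the factor CHOP that is induced under lasting stress, stood at 24.9 ± 0.722 CPM without and 25.4 ± 0.769 CPM with the mimic, and it overlaps the expressed gene Mars. Atf4 stood at 170.4 ± 8.73 CPM without the mimic (from 159 to 185) and at 164 ± 7.92 CPM with it (from 157 to 176), and its log2 fold change was -0.056 (SE 0.034, edgeR adjusted p 0.47). Since ATF4 is controlled mainly by translation, its mRNA level does not measure the protein.

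Atf5, a related factor, had 87.3, 76.1, 87.0, 87.9, 83.9 and 90.2 CPM in the control group, and 78.2, 79.8, 92.8, 76.1 and 74.5 CPM in the mimic group. Mimic replicate 3 was the highest of all 11 samples and control replicate 2 was among the lowest. The log2 fold change was -0.093 (SE 0.053, edgeR adjusted p 0.446), and without mimic replicate 3 it was -0.14 and called (edgeR adjusted p 0.0416). Atf5 overlaps the expressed gene Nup62. Of 24 other stress sensors and regulators, among them the remaining eIF2 kinases and the subunits of eIF2B, 0 were called (3 at an unadjusted p under 0.05, 0 with DESeq2), with 12 above and 12 below 0.

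ATF4 targets held both members that fell. Of the 11 members of this kind, 10 had a log2 fold change below 0, with a median of -0.099. With a sample left out, 9 or 10 were below 0. The median then ran from -0.13 (without mimic replicate 3) to -0.056 (without mimic replicate 2). Ddit4 (ENSMUSG00000020108, chromosome 10, 59949669 to 59951834, minus strand) had 100.7, 95.4, 96.8, 90.9, 96.8 and 92.6 CPM in the control group, and 89.3, 88.3, 88.0, 87.6 and 82.4 CPM in the mimic group. Every mimic sample was below every control sample, with mimic replicate 5 the lowest and control replicate 1 the highest. The mean fell from 95.5 ± 3.47 (SD, n = 6) to 87.1 ± 2.70 CPM (SD, n = 5). This was a change of -8.85%, or -0.13 on the log2 scale (SE 0.031, edgeR adjusted p 0.0157). The change passed the test in 17 of 18 alternative analyses and missed it without control replicate 1 (log2 fold change -0.12, edgeR adjusted p 0.0709). Ddit4 was the member on the list of predicted targets with the most negative log2 fold change, and its 3' UTR of 867 bases held the 8-nucleotide match shown above.

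Chac1 (ENSMUSG00000027313, chromosome 2, 119351229 to 119354381, plus strand) had 14.9, 12.3, 14.3, 13.8, 14.9 and 15.3 CPM in the control group, and 11.2, 11.6, 14.1, 11.8 and 12.1 CPM in the mimic group. The groups overlapped by mimic replicate 3, which lay above control replicates 2 and 4. The other mimic samples lay below all control samples. The mean fell from 14.3 ± 1.09 (SD, n = 6) to 12.1 ± 1.13 CPM (SD, n = 5). This was a change of -15.3%, or -0.24 on the log2 scale (SE 0.063, edgeR adjusted p 0.0325). Its call was lost more often than that of Ddit4, namely when any of control replicates 1, 4, 5 and 6 or mimic replicates 1, 2, 4 and 5 was left out (edgeR adjusted p from 0.0510 to 0.114), with log2 fold changes between -0.24 and -0.21. It was also lost on the authors' normalized values with limma (adjusted p 0.0531). The longest annotated 3' UTR of Chac1 held no match to the seed, not even of 6 nucleotides.

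The other ATF4 targets did not pass the test. Mthfd2 and Shmt2, enzymes of mitochondrial folate metabolism, were at -0.14 (SE 0.057, edgeR adjusted p 0.227) and -0.099 (SE 0.044, edgeR adjusted p 0.264). The serine synthesis enzymes Phgdh and Psat1 were at -0.078 (SE 0.064) and -0.046 (SE 0.059), and the asparagine synthetase gene Asns, an abundant member at 153 ± 3.75 CPM in control samples, was at -0.040 (SE 0.028). Eif4ebp1, a brake on cap-dependent translation, was at -0.11 (SE 0.091), and Slc7a11 at -0.055 (SE 0.12). Trib3, which feeds back on ATF4, had the widest interval, from -0.54 to 0.20, at 1.90 ± 0.439 CPM in control samples. Ppp1r15a, the phosphatase subunit that reverses eIF2 phosphorylation, was the sole member of this kind above 0, at 0.064 (SE 0.045).

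Of 25 tested genes in a list of other ATF4 targets, 6 passed the test (24.0%, beside 2.85% of all tested genes), 5 lower and 1 higher, and 19 were below 0 with a median of -0.046. Without control replicate 1, 2 passed, both lower. Aldh1l2, a mitochondrial folate enzyme, had 27.6, 25.4, 27.7, 25.9, 28.1 and 31.1 CPM in the control group, and 21.3, 21.8, 24.4, 18.9 and 18.9 CPM in the mimic group. With no overlap between groups, it fell by 0.39 on the log2 scale (SE 0.061, edgeR adjusted p 0.00115), and its call held in 18 of 18 alternative analyses. Pck2, a mitochondrial enzyme of gluconeogenesis, fell from 12.7 ± 0.762 to 10.4 ± 0.802 CPM, also with no overlap (log2 fold change -0.30, SE 0.061, edgeR adjusted p 0.0078), and its call held in 18 of 18 as well. Cbs, of the transsulphuration pathway, fell from 28.7 ± 2.33 to 24.1 ± 2.25 CPM (edgeR adjusted p 0.0184). Without control replicate 1 or mimic replicate 2 its adjusted p was 0.0557 and 0.0654.

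The amino acid transporter genes of that list moved in both directions. Slc7a5 fell from 311 ± 12.0 to 287 ± 13.1 CPM (log2 fold change -0.12, edgeR adjusted p 0.0284), a call lost in 8 of 11 fits with a sample left out, all but those without control replicates 2 or 3 or mimic replicate 3 (highest adjusted p 0.0984). Slc38a2, named after its values were seen, fell from 74.4 ± 4.40 to 67.4 ± 3.15 CPM (edgeR adjusted p 0.0365), and its call was likewise lost in 8 of 11, all but those without control replicates 2 or 3 or mimic replicate 2 (highest adjusted p 0.133). It was lost with upper-quartile scaling (adjusted p 0.0524) and on the authors' normalized values (limma adjusted p 0.0553) too, and held in 7 of 18 alternative analyses, as that of Slc7a5 did in 9 of 18. Slc1a5, a glutamine transporter gene, had 4.18, 4.44, 5.42, 5.86, 5.25 and 5.42 CPM in the control group, and 6.03, 6.15, 7.30, 7.17 and 6.78 CPM in the mimic group. It rose by 0.41 on the log2 scale (SE 0.090, edgeR adjusted p 0.0113), with no overlap between groups, and missed the threshold without control replicate 1 (adjusted p 0.0553). Of the cytosolic aminoacyl-tRNA synthetase genes, which ATF4 also regulates, 0 of 12 were called (0 at an unadjusted p under 0.05, 0 with DESeq2). Of the 12, 11 were below 0, with a median of -0.016. With upper-quartile scaling 8 were below 0, and without control replicate 6 there were 6 (median -0.0071). Of 14 cytosolic heat shock genes, which answer to a separate stress factor, 0 were called (2 at an unadjusted p under 0.05, 0 with DESeq2), with a median of -0.021.

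Samples of a group differed in the level of the ATF4 targets. The mean log2 CPM of the 11 member targets, centred per gene over the 11 samples, ran from -0.058 (control replicate 2) to 0.15 (control replicate 6) in control and from -0.13 (mimic replicate 1) to 0.12 (mimic replicate 3) in mimic samples. That of the 25 other targets ran from -0.046 to 0.094 and from -0.086 to 0.059, with the lowest and highest control samples and the highest mimic sample the same as for the members. The groups overlapped on both. The 4 ER-associated degradation genes ran from 0.010 to 0.046 in control and from -0.063 to 0.015 in mimic samples, where mimic replicate 4 alone reached into the control range. The chaperones ran from -0.035 to 0.033 in control and from -0.032 to 0.027 in mimic samples, so that the mimic range lay within the control range.

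**Figure D4:**
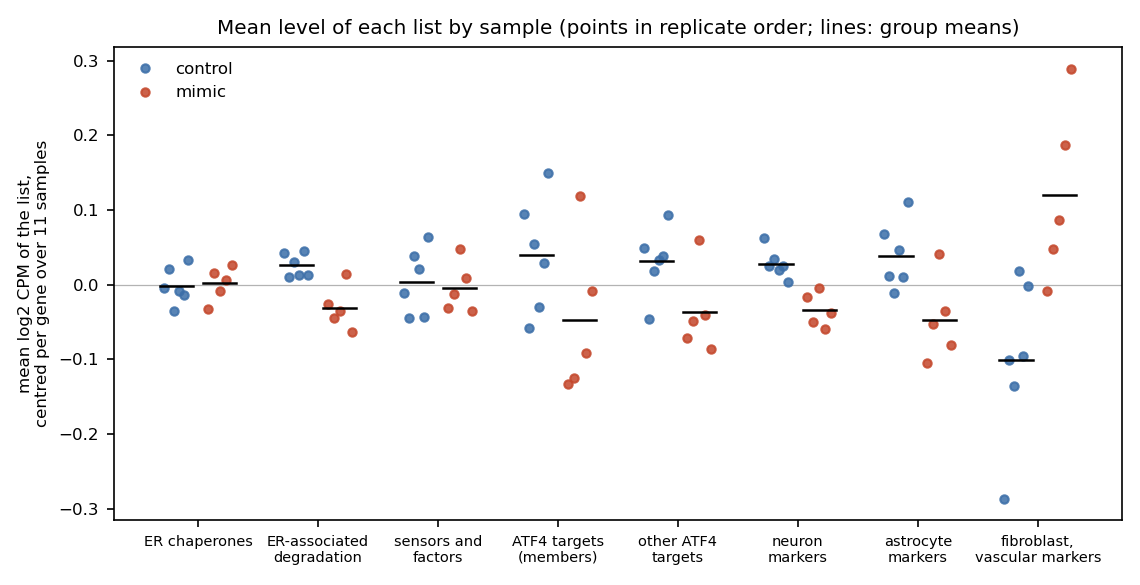
Mean log2 CPM of each list in each sample, centred per gene over the 11 samples, with control in blue, mimic in red and lines for group means. Mimic replicate 3 is the highest mimic sample for ATF4 targets, sensors and transcription factors, astrocyte markers and neuron markers. It is not the highest for chaperones or ER-associated degradation genes. Neuron markers lie lower in all mimic samples than in any control sample.

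Levels of cell type markers differed between the groups as well. Summed over 12 neuron markers, CPM ran from 9818 to 10082 in control and from 9355 to 9658 in mimic samples, with 11 of 12 below 0 and 3 called lower (Nefm, Slc17a7 and Camk2a). Of the neuron markers, 0 were called without control replicate 1, mimic replicate 2 or mimic replicate 4, and 1 without control replicate 4 or with upper-quartile scaling. Summed over 10 astrocyte markers, CPM ran from 4950 to 5390 and from 4543 to 4860, with 8 of 10 below 0 and 1 called lower (Slc1a2, log2 fold change -0.18). Of the astrocyte markers, 2 were called lower with DESeq2 or without mimic replicate 3, and 3 with no count filter. Fibroblast and vascular markers, 12 genes, summed to between 298 and 438 CPM in control and between 443 and 585 in mimic samples, with 10 of 12 above 0, Cdh5 called higher and Rgs5 called lower (with DESeq2, 4 called higher and 1 lower). The call of Rgs5 was lost without control replicate 1 or without mimic replicates 2, 4 or 5. Oligodendrocyte lineage markers (335 to 404 and 307 to 355 CPM) and microglia markers (16.7 to 17.7 and 15.6 to 16.97 CPM) had 0 called (3 and 2 at an unadjusted p under 0.05, 0 with DESeq2). In these bulk samples fewer cells of a type and less RNA per cell cannot be told apart. The part of these markers in the fall of Ddit4, Chac1 and the other ATF4 targets was not tested.

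Members with a seed match were compared with all genes of the same match class. Over all tested genes the median log2 fold change was -0.037 for the 870 genes with a match of 8 nucleotides, -0.017 for the 1806 with one of 7, and 0.0095 for the 9180 with none. The 9 members with a match of 7 or 8 nucleotides had a median of -0.035, and 8 of 9 were below 0, compared with 63.7% of the 2676 tested genes of these classes. Ddit4 (-0.13) and Edem1 (-0.099) were the most negative of the 9, and Pdia6 (0.033) was the sole one above 0. The 27 members without such a match had a median of -0.015. For ATF4 targets the median was -0.094 with a match and -0.099 without. It was lower with a match for chaperones (-0.0242 and 0.0205), ER-associated degradation genes (-0.0666 and -0.0459), and sensors and transcription factors (-0.0065 and 0.013). Of the other pathway genes named above, Aldh1l2, Pck2, Slc38a2 and Slc1a5 each held a match of 7 nucleotides, with Slc1a5 higher in the mimic samples, while Slc7a5 held none and Cbs one of 6.

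**Figure D5:**
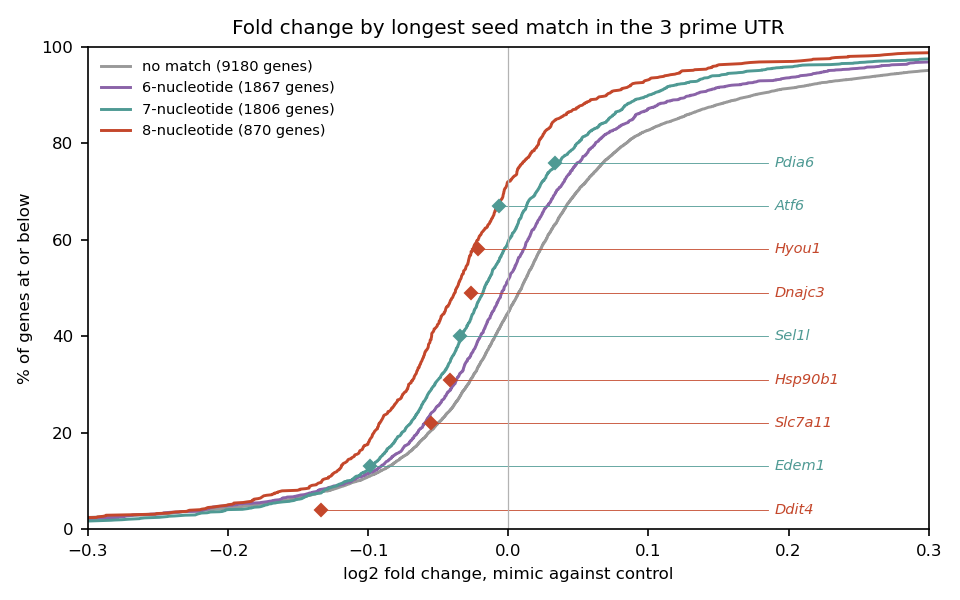
Cumulative percentage of tested genes at or below each log2 fold change (shown from -0.3 to 0.3), by the longest seed match in the longest 3' UTR, leaving out the class with bases 2 to 7 and an A. Diamonds mark the log2 fold change of the 9 members with a match of 8 (red) or 7 (green) nucleotides, and their height carries no value. Genes with a match of 8 nucleotides lie to the left (median -0.037) of genes with none (median 0.0095), and Ddit4 is the leftmost member.

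Promoters were searched for the elements through which these pathways act, from 250 bases before to 50 bases after the RefSeq start, on both strands. They are shown since they mark which members share a regulatory element irrespective of these samples. The table held 32 of the 36 members. The ER stress element, bound by ATF6 and XBP1 with NF-Y (CCAAT, 9 bases of any kind, CCACG), was present in 8 of 32 members and in 0.137% of 27025 genes. Its fixed bases are in capitals, on build GRCm38.p6.
Hspa5, chr2:34772025-34772043: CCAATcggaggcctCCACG
Hsp90b1, chr10:86705638-86705656: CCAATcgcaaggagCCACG
Hsp90b1, chr10:86705533-86705551: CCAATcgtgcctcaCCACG
Calr, chr8:84847075-84847093: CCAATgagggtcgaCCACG
Canx, chr11:50325800-50325818: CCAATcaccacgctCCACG
Pdia6, chr12:17266491-17266509: CCAATgaaaggcggCCACG
Dnajc3, chr14:118937827-118937845: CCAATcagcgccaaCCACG
Creld2, chr15:88819520-88819538: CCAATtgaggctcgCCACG
Syvn1, chr19:6046532-6046550: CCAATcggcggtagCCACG
Of these, 7 are chaperones and the last is the ubiquitin ligase. The related element ERSE-II (ATTGG, 1 base of any kind, CCACG), which shares CCACG and, on the other strand, CCAAT with the former, was present in Dnajb11 and Herpud1 and in 0.0444% of genes. The log2 fold changes of the 10 members with either element lay between -0.088 (Herpud1) and 0.042 (Dnajb11), and none was called.

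The C/EBP-ATF response element bound by ATF4 (TGATG, 1 base of any kind, AA) was present in 4 of 10 ATF4 target members with a promoter in the table, Trib3, Asns, Chac1 and Slc7a11, and also in Herpud1, compared with 4.51% of all genes. Those of the genes that fell are shown.
Chac1, chr2:119351049-119351056: TGATGcAA
Pck2, chr14:55540163-55540170: TGATGtAA
Of the members that fell, Chac1 held this element and no seed match. Ddit4 held an 8-nucleotide seed match and no such element in this window. Among the other ATF4 targets 6 of 20 held it, and among the aminoacyl-tRNA synthetase genes 5 of 7. The 5 members with it had log2 fold changes of -0.24 (Chac1), -0.17 (Trib3), -0.088 (Herpud1), -0.055 (Slc7a11) and -0.040 (Asns), where 1 was called. A match is a description of these letters and not a site of binding. Whether the element or a seed match had a part in the fall of Chac1 or Ddit4 was not tested.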

How the data were processed

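Libraries from 6 control and 5 mimic cultures (poly(A) RNA, TruSeq v2, single-end reads) were grouped by their labels. The authors mapped reads to mm10 (GRCm38) with STAR 2.5.2b, counted them per Ensembl gene with featureCounts (Subread 1.5.1) and deposited raw counts per sample. Which annotation they counted on, and how strand and multiply mapped reads were treated, is not given in the sources used here. The authors also deposited a normalized signal table, in which each column is the counts divided by 1 size factor, and it served for an alternative alone.

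Genes were kept at 5 or more counts in 50% or more of the samples and tested with edgeR 4.0.16 (R 4.3.3): TMM scaling, robust quasi-likelihood fit, group as the sole term, two-sided, Benjamini-Hochberg adjustment over 17365 genes, threshold 0.05. The study's own tool was DESeq2, fitted here as an alternative (1.42.0). CPM used TMM-scaled library sizes. Intervals are 95% intervals of the fit. The steps were tested on simulated data. Symbols, lengths and 3' UTRs (exonic bases after the stop codon) came from GENCODE M21, microRNAs and promoters from RefSeq.

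Depth ran from 17287168 to 48091231 counts, and a count of 0 allows up to 3. Replicates correlated at 0.993 or more. The members and lists were chosen with earlier results of these data known. Values per sample are given for called members, members on the study's list of predicted targets, and those with the smallest p until 8 were reached; of other pathway lists, called genes are named, at most 5 per list. Alternatives were DESeq2, other scalings and filters, the removal of each sample in turn, a replicate block, the normalized table with limma 3.58.1 on log2(value + 1), an exact permutation test, transcript length and any annotated 3' UTR.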

Additional observations from a re-analysis of the deposited data

Results flagged for a closer look

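In 104 groups of values (each member and named gene, the 4 member lists, marker sums and total counts, in control and mimic samples), 9 had a highest or lowest sample whose gap to its nearest neighbour, as a share of the group's range, was past Dixon's 95% critical value. Chance flags about 1 in 20 groups, that is, about as many as 5 of 104. No cause was tested for any of them.

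Among the mimic samples, replicate 1 was the lowest for Calr (gap 0.720 of the range, 8.94 log2 CPM, the others 8.998 or more) and for Dnajb11 (0.752, 5.998 against at least 6.11). Mimic replicate 3 was the highest for Shmt2 (0.912, 5.14 log2 CPM against at most 4.99) and for the transporter gene Slc7a5 (0.730, 8.28 against at most 8.16). Mimic replicate 5 was the highest for Dnajc3 (0.721, 6.25 against at most 6.097) and the lowest for Ddit4 (0.755, 6.37 against at least 6.45). Without mimic replicate 5 Ddit4 was still called (log2 fold change -0.11, edgeR adjusted p 0.0387).

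Among the control samples, replicate 4 was the lowest for Herpud1 (0.703, 5.76 log2 CPM against at least 5.81), replicate 6 the highest for Mthfd2 (0.714, 4.45 against at most 4.24), and replicate 2 the lowest for Slc7a5 (0.634, 8.18 against at least 8.28).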

How the results depend on the processing

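Against 495 genes called, 785 were called with no count filter and between 218 and 491 when a sample was left out. The replicate block also leaves out control replicate 6, which has no partner, and called 328, against 350 without that sample and with no block. Against 2 members called, all lower, 1 was called with the replicate block, as without control replicate 6 and no block, and 1 on the authors' normalized values (Ddit4 in each), and between 0 and 3 when a sample was left out: 0 without control replicate 1, and 3 without mimic replicate 3. Called pathway genes ranged from 2 (without control replicate 1) to 7 when a sample was left out. Members called higher stayed at 0 in all 18 alternatives. The median level per kilobase was 24.0 CPM by longest transcript instead of 15.0, and no member moved by more than 4 places in the order. Members with a seed match were 9 over any annotated 3' UTR too.

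Samples with the same label number did not deviate together (correlations from -0.023 to 0.016 over 5 pairs), so the numbers do not pair the samples, and with the block Chac1, Slc7a5 and Slc38a2 were not called (adjusted p 0.0936, 0.0714 and 0.169), nor were they without control replicate 6 and no block (0.0763, 0.0660 and 0.0994). Signs changed for 5 uncalled members near 0. With the block Hspa5 was at 0.0056, Atf6 at 0.0100 and Slc7a11 at 0.0054. With upper-quartile scaling Syvn1 was at 0.0071 and Atf6 at 0.0038, and Syvn1 was at 0.00045 with the 1 CPM filter and 0.0015 on the normalized values. With a sample left out, the log2 fold change ran from -0.025 to 0.0066 for Hspa5, -0.024 to 0.016 for Syvn1, -0.024 to 0.041 for Ern1, -0.031 to 0.011 for Atf6 and -0.12 to 0.014 for Slc7a11.

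The groups hold 5 and 6 samples and differences of members were mostly under 10%, so changes of a few percent were not detectable. Precision was lowest for Trib3. The exact two-sided permutation test of log2 CPM gave an unadjusted p of 0.00433 for Ddit4 and 0.0173 for Chac1. The same test gave 0.00433 for Sel1l and 0.00649 for Herpud1, neither of them called, so it did not set the called members apart.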
